A study of Mus musculus with 18 samples.

Results

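The genes described here are 50 that copy DNA or make its building blocks: the machinery that marks, opens and copies replication origins, and the enzymes that supply deoxynucleotides. They were grouped by function, with no threshold on a measured value but with earlier results of these data known, and their transcript levels were compared between regulatory T cells (Tregs) lacking CHD8, a chromatin-remodelling helicase, and wild-type (WT) Tregs. All 50 were among the 35865 genes listed under a single name in the RNA table. All 50 also passed the filter on low values, a level of at least 1 TPM in at least 2 of the 4 libraries, as did 15240 genes in all. TPM, a normalized transcript level, is the share of a library's transcripts that come from a gene, corrected for the gene's length and scaled to a fixed total.

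Before S phase, the origin recognition complex (ORC) binds origins and, with CDC6 and CDT1, loads the MCM2-7 helicase, a step called licensing. CDC45 and the GINS complex then join the helicase, DNA is unwound, and DNA polymerases copy both strands behind the sliding clamp PCNA, while ribonucleotide reductase and other enzymes keep deoxynucleotides supplied. Many of these genes are known targets of E2F transcription factors and are transcribed most strongly around the entry into S phase, and Tregs that have met antigen or cytokine divide in lymphoid tissue.

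The RNA libraries came from YFP+ cells sorted from splenic CD4+ T cells of mice, 1 library per mouse and 2 mice per genotype. The Chd8-/- mice are labelled CHD8Flox/FloxFoxp3YFP-Cre: both Chd8 alleles are floxed, and Cre, fused to yellow fluorescent protein, is expressed from the Foxp3 locus, so that deletion is aimed at Foxp3-expressing cells. The WT mice are labelled CHD8flox/floxFoxp3YFP-Cre/+, while the study's own description of WT mice names unfloxed Chd8. The alleles the WT mice carried could not be settled from these sources. In mice of the labelled genotype the study describes YFP+ Tregs as CHD8-deficient, and YFP+ cells were sorted here. The conflict thus bears on the whole comparison and not only on naming. Every sample of both genotypes carries the treatment label Poly IC injection, which the study's methods do not describe. Each genotype was 1 male and 1 female by the study's account, without saying which library is which. Foxp3 is X-linked, and the study describes its Foxp3YFP-Cre/+ mice as female. Among its Chd8-/- mice it writes the form Foxp3YFP-Cre for males. Read in this way, both WT labels would be female and both Chd8-/- labels male, which differs from the account of 1 male and 1 female. Sex and genotype could then not be told apart. The sex of each library was not checked from its transcripts, and sex was not weighed against genotype. By the study's methods mice were 5 to 7 weeks old and sex-matched littermates. The Chd8-/- mice as a line develop fatal inflammation early in life, and the labels give no disease state for the mice behind these libraries.

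TPM keeps no read depth, so the counting error behind a value is unknown here, and each library listed between 19540 and 20984 genes above 0. Values are always given for replicate 1 and then replicate 2. Errors are moderated standard errors from limma, a linear model fit of 2 libraries against 2. The fit draws each gene's variance towards that of genes at similar levels. An error can thus be larger or smaller than the spread of the gene's own libraries gives. For Chd8 itself the Chd8-/- libraries listed 14.9 and 11.4 TPM and the WT libraries 24.7 and 27.6 TPM, a log2 fold change of -0.95 ± 0.29, over the whole gene and not the floxed exons alone. The Treg marker list, 10 genes, was above 0 in every library. Its 7 Treg genes, among them Foxp3 and Il2ra, summed to 2959.6 and 2312.1 TPM in Chd8-/- and 2015.5 and 2093.0 TPM in WT, with Ctla4, Tnfrsf18 and Tnfrsf4 higher in both Chd8-/- libraries and Foxp3 overlapping. Its 3 general T cell genes, Cd4, Cd3e and Cd3g, summed to 2650.0 and 2214.5 TPM against 2787.3 and 2762.3 TPM, with Cd4 and Cd3e lower in both Chd8-/- libraries. Chd8-/- replicate 2 stood apart in markers of other cells. Its 7 erythroid markers summed to 2009.4 TPM, against 8.7 TPM in Chd8-/- replicate 1 and 386.8 and 352.5 TPM in WT, and in Chd8-/- replicate 1 4 of the 7 were at 0. Its 8 myeloid markers summed to 1438.9 TPM, nearly all of it Lyz2 at 1360.3 TPM, against 25.7 TPM in Chd8-/- replicate 1 and 106.6 and 79.5 TPM in WT. Its B cell markers (142.5 TPM against 31.4 to 46.1 TPM) and plasma cell markers (290.6 TPM against 76.6 to 112.4 TPM) also had the highest sums of the 4. Its CD8 and NK cell markers had the lowest sum (62.5 TPM against 87.3 to 119.6 TPM). Single markers did not all follow these sums. Among the erythroid markers Alas2, at 7.5 TPM, was the lowest of the 4. Among the myeloid markers Adgre1, at 4.3 TPM, lay below both WT libraries, and Cd14, at 3.7 TPM, within the WT range. The other erythroid and myeloid markers were each highest in this library. Cd79a and Ms4a1, at 73.7 and 53.0 TPM, made up most of the B cell sum, while Cd79b, at 8.9 TPM, was the lowest of the 4. Jchain, at 165.6 TPM, made up most of the plasma cell sum, while Sdc1 was at 0. Nkg7 and Gzmb, at 15.2 and 3.1 TPM in this library, were the lowest of the 4. Cd8b1, at 35.9 TPM, lay within the WT range, and Eomes, at 6.7 TPM, was the highest. Other dividing cells express replication genes too, so the main counts and the values that rest on this library are also given without it, and the part of other cells in the results was not tested. In sorted bulk cells, fewer cells in S phase and less RNA per cell cannot be told apart.

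**Figure D1:**
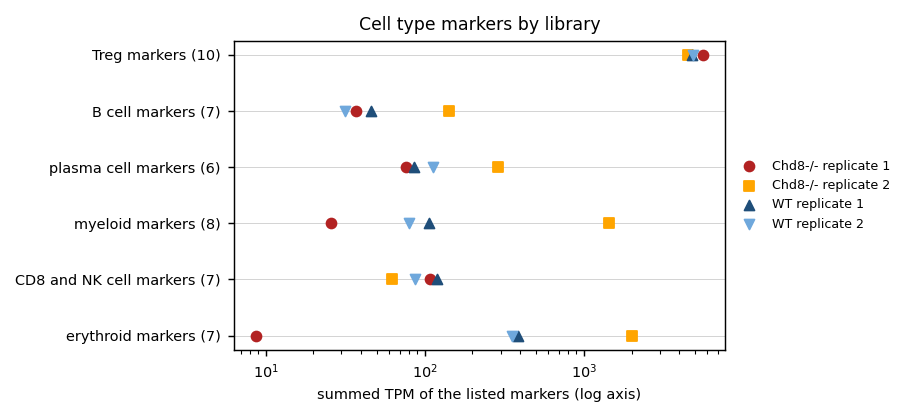
Summed TPM of each list of cell type markers (number of genes in brackets) in each of the 4 RNA libraries, on a log axis. Treg markers lie between 4526.6 and 5609.6 TPM in all 4, while erythroid markers range from 8.7 TPM in Chd8-/- replicate 1 to 2009.4 TPM in Chd8-/- replicate 2.

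As a group, the replication and nucleotide genes were listed somewhat higher in Chd8-/- Tregs, with 5 of the 6 subunits of the MCM2-7 helicase, PCNA, both subunits of ribonucleotide reductase and thymidine kinase above WT in both Chd8-/- libraries. The origin recognition complex was mixed, with 2 of its 6 subunits above WT, 2 below and 2 overlapping. None of the 50 passed limma at an adjusted p under 0.05, and none of all genes tested did either (0.0%), the smallest adjusted p among the 50 being 0.46 for Mcm3. The log2 fold change was above 0 in 31 of the 50 and below 0 in 19, so 62.0% were higher, against 38.5% of all genes tested. The median log2 fold change was 0.13, against -0.15 for all genes tested. Setting all libraries to the same median raised the number higher to 37 and the median to 0.31, with the median of all genes at 0.03, and quantile normalization gave 36 and 0.24.

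In 19 of the 50 genes (38.0%), both Chd8-/- libraries exceeded both WT libraries, a pattern seen in 14.8% of all genes tested. In 6 (12.0%), Orc3, Orc4, Gins1, Prim2, Pold3 and Timeless, both lay below both WT libraries, against 27.8% of all genes. In the other 25 the genotypes overlapped. With 2 libraries against 2, an exact permutation test of a single gene cannot give a p below 0.33, so lack of overlap is a description. Gins2 and Rfc4 were the 2 genes at a log2 fold change of 1 or more, where 5.12% of all genes were, and Gins1 and Gmnn the 2 at -1 or less, where 11.6% of all genes were. At an unadjusted limma p under 0.05, 2 genes were higher, Mcm3 and Pcna, with 3.9% of all genes higher at that level. None of the 50 was lower at it, with 6.3% of all genes lower. These counts varied with the fit. Without a trend of variance over level 0 were higher and 1 lower, and with libraries paired by replicate number 2 and 1. With library medians centred they were 4 and 0. The shares of all genes at that level are not given for these fits. The counts of large differences were thus at or under the background with the libraries as deposited, while with library medians centred 5 genes (10.0%, against 7.36% of all genes) were at 1 or more. Without WT replicate 2 there were also 5 (10.0%, against 7.32%). The shares of non-overlapping genes ran higher than the background upward and lower than it downward.

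Without Chd8-/- replicate 2, the library with erythroid and myeloid transcripts, 36 of the 50 were higher, the median was 0.22 against -0.04 for all genes, and the single Chd8-/- library lay above both WT libraries in 28 genes, against 32.5% of all genes, and below both in 9, against 38.7%. Without Chd8-/- replicate 1 it was 27 higher, a median of 0.05 against -0.25 for all genes, and 23 genes above both WT libraries, against 28.0% of all genes, and 18 below, against 52.7%. The median thus stayed above that of all genes with either Chd8-/- library left out.

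**Figure D2:**
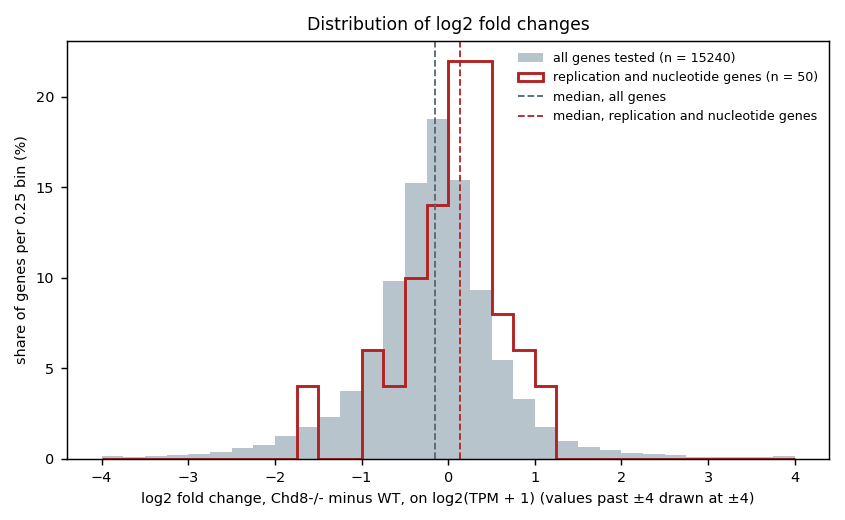
Share of genes (%) in each 0.25-wide bin of log2 fold change, Chd8-/- minus WT on log2(TPM + 1), for all 15240 genes tested (grey) and the 50 replication and nucleotide genes (red line), with dashed lines at the medians. The red median lies at 0.13 and the grey median at -0.15.

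Promoter sequence was not used to choose the genes. Many of them are known E2F targets, though, so a raised share of E2F words among them is not an independent result. RefSeq promoter sequence for GRCm38.p6, from 250 bases before to 50 bases after a start, was at hand for 41 of the 50. The table lists 1 or more starts per gene, 49 for these 41, and a gene was counted if the word was found at any of them. An E2F word, any of TTTCCCGC, TTTCGCGC, TTTGCCGC and TTTGGCGC on either strand, was found in 16 of the 41 (39%), against 2.6% of all 27025 genes in the table and 4.34% of the 10439 of them that passed the filter. In 11 of the 16 the start lies within 50 bases of the outermost annotated start of the gene, and in 5 the word was found only at a start further inside it. Cdc6, Mcm7 and Lig1 are among the latter, with starts 442, 228 and 1651 bases inside. These words can overlap one another, as in Mcm5 and Mcm6. The 8 windows of 30 bases below show 1 such word each, in capitals, on the strand of the gene, for genes whose Chd8-/- libraries lay above WT (Mcm3, Mcm6, Mcm7, Cdc6 and Lig1), below WT (Orc3 and Pold3) or across WT (Mcm5).
Mcm3, chr1:20820275-20820304, minus strand: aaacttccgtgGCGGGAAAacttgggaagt
Mcm6, chr1:128359734-128359763, minus strand: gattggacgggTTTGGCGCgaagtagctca
Mcm7, chr5:138172030-138172059, minus strand: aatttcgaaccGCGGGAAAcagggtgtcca
Cdc6, chr11:98908002-98908031, plus strand: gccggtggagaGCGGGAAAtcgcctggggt
Lig1, chr7:13278841-13278870, plus strand: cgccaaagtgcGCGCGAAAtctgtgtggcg
Orc3, chr4:34614965-34614994, minus strand: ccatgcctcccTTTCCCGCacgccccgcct
Pold3, chr7:100121467-100121496, minus strand: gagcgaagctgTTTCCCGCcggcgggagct
Mcm5, chr8:75109345-75109374, plus strand: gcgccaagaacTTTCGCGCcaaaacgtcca
The word was thus present in genes listed higher, lower and across WT. By direction, it was found in 5 of the 15 genes above WT, in 2 of the 4 below and in 9 of the 22 that overlapped. The CCAAT box was found in 24 of the 41 genes (58.5%, against 41.1% of all genes and 42.4% of those that passed the filter), and the GC box, GGGCGG, in 30 (73.2%, against 38.2% and 61.5%). The cell cycle homology region, written TTTGAA or TTCGAA, was found in 7 (17.1%, against 21.7% and 17.5%). A matching word is a description of the sequence and not a bound site.

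Among the 6 subunits of ORC, the complex that marks origins, 2 were above WT in both Chd8-/- libraries, 2 below, and 2 overlapped. The complex thus did not move one way. Orc3, the subunit listed highest, was at 48.2 and 36.0 TPM in Chd8-/- and 58.2 and 55.4 TPM in WT Tregs. Orc4 was at 8.1 and 6.6 TPM in Chd8-/- and 10.0 and 9.3 TPM in WT. In both genes each Chd8-/- library lay below each WT library, with log2 fold changes of -0.44 ± 0.25 (adjusted p = 0.607, limma) and -0.36 ± 0.33 (adjusted p = 0.744), both -0.23 without Chd8-/- replicate 2. Orc2 was at 13.0 and 12.0 TPM in Chd8-/- and 8.7 and 8.8 TPM in WT, and Orc6, the smallest subunit, at 15.8 in both Chd8-/- libraries and 12.8 and 13.6 TPM in WT. These 2 genes had all Chd8-/- values above all WT values, by 0.47 ± 0.30 and 0.24 ± 0.28 on the log2 scale. Orc5 was at 30.6 and 9.0 TPM in Chd8-/- and 29.9 and 33.3 TPM in WT, so its log2 fold change of -0.87 ± 0.62 rested on Chd8-/- replicate 2 and was -0.04 without it. Orc1, an ATPase subunit, was at 18.1 and 14.8 TPM in Chd8-/- and 16.9 and 19.1 TPM in WT, and the genotypes overlapped. The exons of Orc3 and Orc4 overlap those of genes on the opposite strand (Akirin2 and Rars2, and Acvr2a and Mbd5), and whether strand was used in counting is not given in the sources used here.

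The 3 licensing factors differed in opposite directions. Cdc6, whose ATPase loads the helicase, was at 5.4 and 2.9 TPM in Chd8-/- Tregs and 1.7 in both WT libraries. Both Chd8-/- values lay above WT, by 0.89 ± 0.46 on the log2 scale (adjusted p = 0.582, limma), at the low end of the levels of these genes. Cdt1, the partner of CDC6 in loading, was at 19.1 and 41.0 TPM in Chd8-/- and 21.4 and 23.3 TPM in WT, so the Chd8-/- libraries lay on either side of WT. Gmnn encodes geminin, the protein that holds CDT1 inactive once S phase has begun. It lies at chr13:24751845-24761937 in GRCm38.p6 and was at 25.9 and 2.2 TPM in Chd8-/- and 32.6 and 22.9 TPM in WT, and its log2 fold change of -1.61 ± 1.09 (adjusted p = 0.66) came from Chd8-/- replicate 2, the only low library. Without that library it was -0.08. The ratio of Gmnn to Cdt1 was 1.36 in Chd8-/- replicate 1 and 0.98 and 1.52 in WT, and 0.05 in Chd8-/- replicate 2.

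The MCM2-7 helicase was the role with the most genes above WT: in 5 of its 6 subunits both Chd8-/- libraries exceeded both WT libraries. Mcm3 (chr1:20802966-20820312 in GRCm38.p6, as are the other positions) was at 153.8 and 167.5 TPM in Chd8-/- and 69.9 and 108.3 TPM in WT Tregs. The lowest Chd8-/- value was above the highest WT value, and the log2 fold change was 0.88 ± 0.28 (unadjusted p = 0.0301, adjusted p = 0.46, limma), or 1.80-fold on the mean TPM. It was 0.81 without Chd8-/- replicate 2 and 0.56 without WT replicate 1, the lower WT library. Mcm4 was at 126.4 and 99.9 TPM in Chd8-/- and 95.0 and 99.0 TPM in WT, so that Chd8-/- replicate 2 barely cleared WT and the log2 fold change was 0.21 ± 0.21, or 0.38 without that library. Mcm2 was at 66.2 and 91.5 TPM in Chd8-/- and 58.3 and 58.2 TPM in WT, and Mcm6 at 83.3 and 82.7 TPM in Chd8-/- and 69.8 and 75.4 TPM in WT. Mcm7 was at 22.1 and 32.0 TPM in Chd8-/- and 20.5 and 18.4 TPM in WT. In these 3 the Chd8-/- libraries lay above WT by 0.41 ± 0.25, 0.19 ± 0.19 and 0.43 ± 0.30 on the log2 scale, and for Mcm2 and Mcm7 it was 0.18 each without Chd8-/- replicate 2. The exons of Mcm7 overlap those of Ap4m1 on the opposite strand. Mcm5, the remaining subunit, was at 22.3 and 8.2 TPM in Chd8-/- and 16.1 and 19.0 TPM in WT. Its Chd8-/- libraries lay on either side of WT, and its log2 fold change was -0.34 ± 0.54, or 0.33 without Chd8-/- replicate 2. Summed over the 6 subunits, the level was 474.1 and 481.8 TPM in Chd8-/- and 329.6 and 378.3 TPM in WT, a ratio of 1.35.

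**Figure D3:**
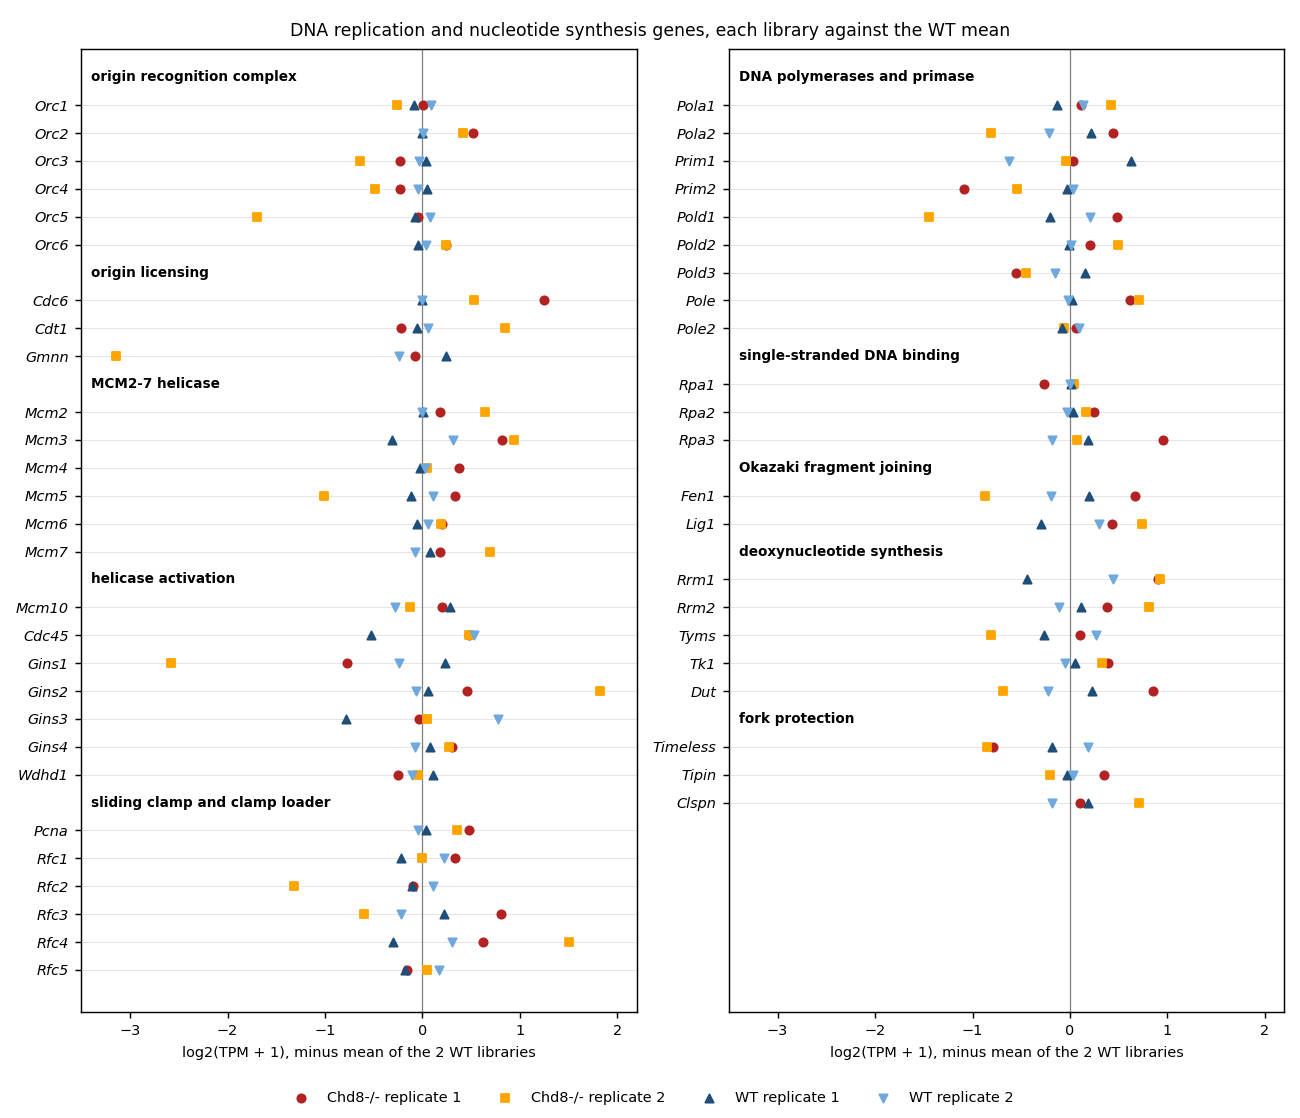
Level of each of the 50 genes in each library as log2(TPM + 1) minus the mean of the 2 WT libraries, grouped by role. The MCM2-7 subunits other than Mcm5 lie to the right of 0 in both Chd8-/- libraries, and Gmnn and Gins1 lie farthest to the left in Chd8-/- replicate 2.

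The factors that switch the loaded helicase on include Gins2 and Gins1, which had the highest and the lowest log2 fold change of the 50 with all 4 libraries and 1 TPM added. Without Chd8-/- replicate 2 these were Cdc6 and Prim2, at 1.25 and -1.09. With 0.1 TPM added Cdc6 was the highest, and with 5 TPM added Gmnn the lowest. The 4 GINS subunits assemble into a single complex, and they did not move together. Gins2 (chr8:120581266-120589075) was at 36.2 and 94.8 TPM in Chd8-/- and 27.3 and 25.0 TPM in WT Tregs. Both Chd8-/- values were above WT, by 1.14 ± 0.51 on the log2 scale (adjusted p = 0.548, limma), and the difference was 0.46 without Chd8-/- replicate 2. Its exons overlap those of Gse1 on the opposite strand. Gins1 (chr2:150909556-150931280) was at 8.1 and 1.6 TPM in Chd8-/- and 17.3 and 12.2 TPM in WT. Both Chd8-/- values were below WT, with a log2 fold change of -1.68 ± 0.71 (adjusted p = 0.529) that was -0.77 without Chd8-/- replicate 2. Gins4, the subunit listed highest, was at 91.5 and 89.6 TPM in Chd8-/- and 78.4 and 70.1 TPM in WT. All Chd8-/- values of Gins4 were above WT, by 0.28 ± 0.19. Gins3 was at 15.1 and 16.0 TPM in Chd8-/- and 8.6 and 27.3 TPM in WT, where the WT libraries enclosed both Chd8-/- values. The ratio of Gins1 to Gins2 was 0.63 and 0.49 in WT, 0.22 in Chd8-/- replicate 1 and 0.02 in Chd8-/- replicate 2, a pair chosen after its values were seen. Cdc45, which with GINS completes the active helicase, was at 6.8 in both Chd8-/- libraries and 2.9 and 7.1 TPM in WT. Mcm10, which helps to activate it, was at 3.9 and 2.9 TPM in Chd8-/- and 4.2 and 2.5 TPM in WT, and Wdhd1, which tethers polymerase alpha to the helicase, at 8.4 and 9.9 TPM in Chd8-/- and 11.1 and 9.4 TPM in WT. The genotypes overlapped in all 3, with log2 fold changes between -0.15 and 0.47.

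Pcna, the sliding clamp that holds polymerases on DNA, had the highest level of the 50 genes on the TPM scale. It lies at chr2:132249286-132253180 and was at 570.8 and 523.6 TPM in Chd8-/- and 420.7 and 397.3 TPM in WT Tregs. Each Chd8-/- library exceeded each WT library, with gaps within each genotype smaller than the gap between them, and the log2 fold change was 0.42 ± 0.15 (unadjusted p = 0.0482, adjusted p = 0.487, limma), or 1.34-fold. The log2 fold change lay between 0.36 and 0.48 with each of the 4 libraries left out in turn. The RFC1-5 proteins form the loader that opens the clamp. Rfc4 (chr16:23113948-23127730) was at 31.3 and 58.2 TPM in Chd8-/- and 16.0 and 24.8 TPM in WT. Its Chd8-/- values were above WT, by 1.06 ± 0.43 (adjusted p = 0.51), or 0.63 without Chd8-/- replicate 2, and its exons overlap those of Eif4a2 on the opposite strand. Rfc2 was at 75.6 and 31.9 TPM in Chd8-/- and 74.9 and 87.5 TPM in WT, where Chd8-/- replicate 2 alone was low and the log2 fold change was -0.71 ± 0.46, or -0.10 without it. Rfc3 was at 61.2 and 22.5 TPM in Chd8-/- and 40.6 and 29.6 TPM in WT, Rfc1, the large subunit, at 22 and 17.2 TPM in Chd8-/- and 14.6 and 20.3 TPM in WT, and Rfc5 at 46.1 and 53.6 TPM in Chd8-/- and 45.7 and 58.5 TPM in WT. In these last 3 the genotypes overlapped, with log2 fold changes between -0.06 and 0.17. Levels are compared between genes here on the TPM scale, which divides by gene length. The study's methods name both a 3' assay and an RNA-seq kit for these libraries, and for reads from the 3' end that division would be wrong, so the order of genes by level is less certain than the order of libraries within a gene.

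The replicative polymerases and primase showed no common direction: of 9 genes, 2 were above WT, 2 below, and 5 overlapped. Pole, the catalytic subunit of the leading-strand polymerase epsilon, was at 18.8 and 20.1 TPM in Chd8-/- and 12.1 and 11.7 TPM in WT Tregs. The libraries of each genotype agreed closely and the Chd8-/- values were higher by 0.66 ± 0.28 on the log2 scale (adjusted p = 0.522, limma), between 0.62 and 0.71 with any 1 library left out. Pold2, the accessory subunit of polymerase delta, was at 23.5 and 29.0 TPM in Chd8-/- and 20.2 and 20.4 TPM in WT, also above WT, by 0.35 ± 0.26, or 0.20 without Chd8-/- replicate 2, with exons that overlap Aebp1 on the opposite strand. Prim2, the large primase subunit, was at 2.5 and 4.1 TPM in Chd8-/- and 6.3 and 6.6 TPM in WT, and Pold3, another polymerase delta subunit, at 16.7 and 18.0 TPM in Chd8-/- and 27.9 and 22.5 TPM in WT. Both genes were lower in each Chd8-/- library than in each WT library, with log2 fold changes of -0.82 ± 0.40 (adjusted p = 0.572) and -0.51 ± 0.27 (adjusted p = 0.591). Prim1, the catalytic primase subunit and the gene of this role with the highest mean level, was at 44.5 and 42.2 TPM in Chd8-/- and 67.7 and 27.8 TPM in WT, so that WT enclosed Chd8-/-. Pold1, the catalytic subunit of polymerase delta, was at 23.8 and 5.5 TPM in Chd8-/- and 14.4 and 19.5 TPM in WT, with the Chd8-/- libraries on either side of WT. Pola1 and Pola2 encode subunits of polymerase alpha, which extends primers: Pola1 was at 15.5 and 19.4 TPM in Chd8-/- and 12.9 and 15.8 TPM in WT, and Pola2 at 6.4 and 2.1 TPM in Chd8-/- and 5.3 and 3.7 TPM in WT. Pole2 was at 11.1 and 10.1 TPM in Chd8-/- and 9.9 and 11.3 TPM in WT. The genotypes overlapped in each of the last 4 genes, with log2 fold changes between -0.48 and 0.26.

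Of the 3 subunits of replication protein A, which coats single-stranded DNA, Rpa2 was at 93.9 and 88.5 TPM in Chd8-/- and 80.5 and 77.1 TPM in WT Tregs. Both Chd8-/- values of Rpa2 were above WT, by 0.21 ± 0.18 on the log2 scale. Rpa1, the large subunit, was at 45.7 and 57.1 TPM in Chd8-/- and 55.5 and 55.1 TPM in WT, and Rpa3 at 71.8 and 38.4 TPM in Chd8-/- and 41.6 and 32.2 TPM in WT. Both overlapped between genotypes, and the log2 fold change of Rpa3, 0.51 ± 0.39, was 0.07 without Chd8-/- replicate 1. Lig1 seals the nicks between Okazaki fragments and Fen1 trims their flaps. Lig1 was at 34.5 and 43.1 TPM in Chd8-/- and 20.4 and 31.5 TPM in WT, and its Chd8-/- values were above WT by 0.59 ± 0.32 (adjusted p = 0.599, limma). The difference was 0.28 without WT replicate 1, the lower WT library. Fen1, one of the lowest of the 50 genes, was at 4.8 and 1.0 TPM in Chd8-/- and 3.2 and 2.2 TPM in WT, so the Chd8-/- libraries enclosed WT. The exons of Fen1 and Rpa1 overlap those of Tmem258 and Smyd4 on the opposite strand.

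Deoxynucleotide synthesis was the role with the largest ratio of summed levels, 261.2 and 253.9 TPM in Chd8-/- against 160.2 and 180.5 TPM in WT Tregs, or 1.51-fold. Rrm1 encodes the large subunit of ribonucleotide reductase, the enzyme that makes deoxynucleotides from ribonucleotides. It lies at chr7:102441695-102469771 and was at 103.7 and 104.5 TPM in Chd8-/- and 40.2 and 74.6 TPM in WT. The Chd8-/- libraries were nearly equal and above both WT libraries, which differed more from each other, and the log2 fold change was 0.91 ± 0.35 (unadjusted p = 0.055, adjusted p = 0.498, limma), or 0.48 without WT replicate 1. Rrm2, its S phase small subunit, was at 76.9 and 104.0 TPM in Chd8-/- and 63.4 and 54.3 TPM in WT, above WT in both libraries by 0.60 ± 0.25 (adjusted p = 0.522), or 0.38 without Chd8-/- replicate 2. Tk1, the thymidine kinase of the salvage pathway, was at 27.6 and 26.3 TPM in Chd8-/- and 21.5 and 20.1 TPM in WT, also above WT, by 0.36 ± 0.25. Its exons overlap those of Afmid on the opposite strand. Tyms, which makes thymidylate anew, was at 10.5 and 5.1 TPM in Chd8-/- and 7.9 and 11.8 TPM in WT, and Dut, which removes dUTP, at 42.5 and 14.0 TPM in Chd8-/- and 27.2 and 19.7 TPM in WT. These 2 overlapped between genotypes, and for Dut the Chd8-/- libraries lay on either side of WT. A pseudogene of Tyms is listed in the same table, so reads of the pair could be split between them.

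Of the 3 genes that protect the fork and pass on its checkpoint signal, Timeless (chr10:128232063-128252941) was at 1.3 and 1.2 TPM in Chd8-/- and 2.5 and 3.5 TPM in WT Tregs. Timeless was low in every library and lower in both Chd8-/- libraries, with a log2 fold change of -0.82 ± 0.42 (adjusted p = 0.581, limma) on a scale that understates the difference of such low genes. Its exons overlap those of Gm26847 on the opposite strand. Tipin, the partner of TIMELESS, was at 11.7 and 7.7 TPM in Chd8-/- and 8.8 and 9.2 TPM in WT, and Clspn, the adaptor that activates the checkpoint kinase CHK1, at 4.0 and 6.6 TPM in Chd8-/- and 4.3 and 3.1 TPM in WT. Both overlapped between genotypes.

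Summed by role, both Chd8-/- libraries were above both WT libraries for the helicase, its activators, the clamp and loader, replication protein A, Okazaki fragment joining and deoxynucleotide synthesis. The 3 subunits of replication protein A summed to 211.4 and 184.0 TPM in Chd8-/- and 177.6 and 164.4 TPM in WT, the smallest ratio of these 6 roles at 1.16. ORC was the role whose sums lay below WT in both libraries, at 133.8 and 94.2 TPM in Chd8-/- and 136.5 and 139.5 TPM in WT. Licensing factors, polymerases and fork protection overlapped between genotypes, with ratios of 0.93, 0.99 and 1.04. Over all 50 genes the sum was 2327.0 and 2198.7 TPM in Chd8-/- and 1837.8 and 1871.0 TPM in WT, and without Pcna, the largest single contributor, 1756.2 and 1675.1 TPM against 1417.1 and 1473.7 TPM. A sum follows its few most abundant genes, and no test was made on it. Of the 6 roles whose sums were higher, 2 of 6 clamp and loader genes were above WT, and 4 overlapped. Of the 7 activators 2 were above, 1 below, and 4 overlapped. It was 5 of 6 above for the helicase and 3 of 5 for deoxynucleotide synthesis. For replication protein A it was 1 of 3, and for Okazaki fragment joining 1 of 2.

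**Figure D4:**
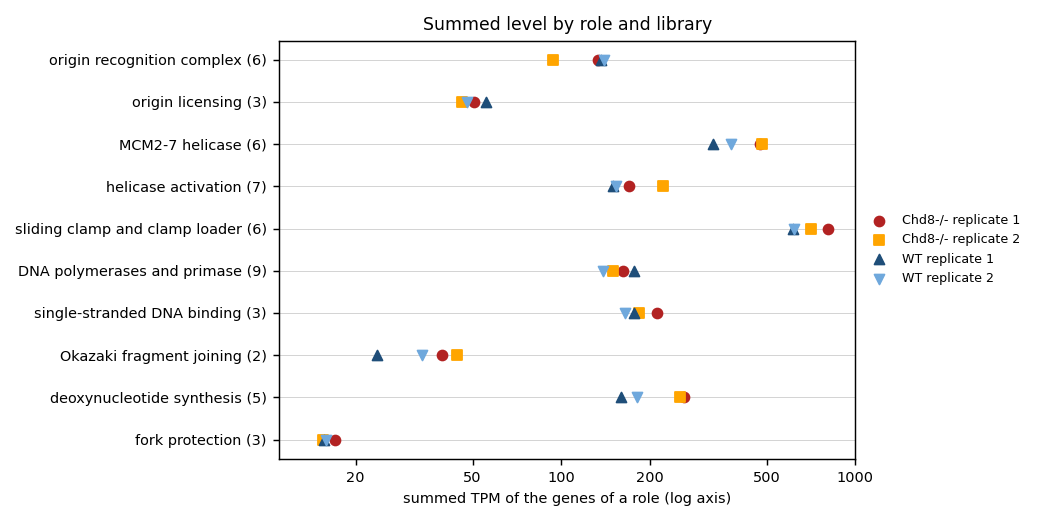
Summed TPM of the genes of each role (number of genes in brackets) in each library, on a log axis. The helicase sums lie at 474.1 and 481.8 TPM in Chd8-/- against 329.6 and 378.3 TPM in WT, and the ORC sums at 133.8 and 94.2 TPM against 136.5 and 139.5 TPM.

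The Chd8-/- libraries differed from each other more often than the WT libraries did. A gap of at least 1 on the log2 scale separated the Chd8-/- libraries in 12 of the 50 genes (24.0%, against 26.9% of all genes) and the WT libraries in 3, Gins3, Prim1 and Cdc45 (6.0%, against 14.4%). The median gap over the 50 genes was 0.33 in Chd8-/- and 0.22 in WT, and over all genes 0.52 and 0.32. In 10 of the 12 genes Chd8-/- replicate 2 was the lower library, namely Orc5, Gmnn, Mcm5, Gins1, Rfc2, Rfc3, Pola2, Pold1, Fen1 and Dut, and in Cdt1 and Gins2 it was the higher. Gins1 and Gins2 are the members of this group in which the genotypes did not overlap. Over all 15240 genes, 4097 had a gap of at least 1 between the Chd8-/- libraries. Chd8-/- replicate 2 was the lower in 2659 of them and the higher in 1438. It was the single lowest of the 4 libraries in 16 of the 50 genes (32.0%), against 44.4% of all genes. It is also the library with the erythroid and myeloid transcripts, whose part in these gaps was not tested. Leaving it out moved the log2 fold change by over 1.5 times in 34 of the 50 genes. Of these, 10 were genes whose genotypes did not overlap, which by construction cannot turn, and 24 overlapped. The same count was not made over all genes, and for fold changes near 0 a small shift is enough to be counted. Among the 24 that overlapped, the log2 fold change was then 0.48 for Pold1, 0.66 for Fen1, 0.85 for Dut, 0.80 for Rfc3, 0.44 for Pola2, 0.95 for Rpa3, 0.11 for Tyms, 0.10 for Clspn and -0.22 for Cdt1.

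**Figure D5:**
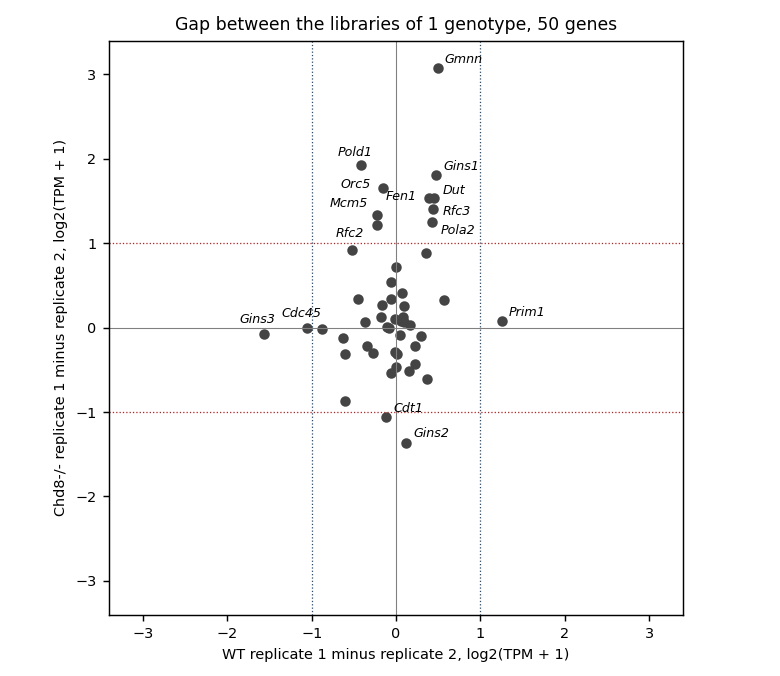
Difference between the 2 libraries of a genotype for each of the 50 genes, WT on the horizontal and Chd8-/- on the vertical axis, both as replicate 1 minus replicate 2 of log2(TPM + 1), with dotted lines at -1 and 1. The 12 genes beyond the horizontal lines include Gmnn and Gins1, and 10 of the 12 lie above, where Chd8-/- replicate 2 is the lower library.

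The rest of the pathway was followed through 6 further lists, 112 genes of which 109 passed the filter. None of the 109 passed limma at an adjusted p under 0.05. Of them 66 were higher and 43 lower, 32 had both Chd8-/- libraries above WT (29.4%, against 14.8% of all genes) and 20 both below (18.3%, against 27.8%), and the median log2 fold change was 0.15, or 0.14 without Chd8-/- replicate 2. The same shares of all genes stand behind the count of each list. Histone chaperones and other factors that assemble chromatin behind the fork had a median of 0.53, the highest of the 6 lists, with 7 of 13 above WT (53.8%) and 2 below (15.4%), and a median of 0.39 without Chd8-/- replicate 2. Among them Chaf1a, the large subunit of the CAF-1 chaperone that PCNA recruits, was at 22.2 and 23.2 TPM in Chd8-/- and 11.7 and 9.4 TPM in WT Tregs. It was above WT in both libraries by 1.04 ± 0.29 (adjusted p = 0.441, limma). The histone H3-H4 chaperone Asf1b, at 27.2 and 49.7 TPM in Chd8-/- and 18.6 and 23.8 TPM in WT, was also above WT, by 0.78 ± 0.39 (0.36 without Chd8-/- replicate 2), while its paralog Asf1a, at 82.0 and 82.5 TPM against 94.9 and 99.0 TPM, was below. Nasp was the other lowest of the list, at 50.2 and 35.9 TPM against 44.4 and 60.9 TPM.

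Among 29 other replication factors, 10 were above WT (34.5%) and 5 below (17.2%), with a median of 0.23, or 0.08 without Chd8-/- replicate 2. Ten1, of the CST complex that serves telomere replication, was at 102.8 and 94.8 TPM in Chd8-/- and 31.0 and 52.2 TPM in WT Tregs, above WT by 1.27 ± 0.32 (adjusted p = 0.43, limma). Dscc1, of an alternative clamp loader, was at 7.5 and 5.8 TPM in Chd8-/- and 1.5 and 3.7 TPM in WT, above WT by 1.15 ± 0.49. At the other end, Rnaseh2a, which removes ribonucleotides from DNA, was at 12.1 and 3.4 TPM against 15.0 and 11.4 TPM and overlapped between genotypes. Mtbp, which helps to fire origins, was lower in both Chd8-/- libraries, at 7.2 and 4.4 TPM against 10.9 and 11.4 TPM.

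Of 23 other deoxynucleotide enzymes, 4 were above WT (17.4%) and 3 below (13.0%). Their median log2 fold change was 0.009, or 0.14 without Chd8-/- replicate 2. Dctpp1, which clears modified dCTP, was at 84.4 and 40.5 TPM in Chd8-/- and 13.0 and 50.8 TPM in WT Tregs, where the genotypes overlapped. Nme1, a nucleoside diphosphate kinase, was at 233.8 and 350.8 TPM in Chd8-/- and 126.8 and 178.1 TPM in WT, above WT by 0.93 ± 0.30 (adjusted p = 0.465, limma). Dck, the kinase that salvages deoxycytidine, and Dtymk, which phosphorylates thymidylate, were both below WT, at 88.2 and 52.4 TPM against 108.1 and 115.7 TPM and at 71.9 and 34.8 TPM against 90.1 and 72.0 TPM. Their log2 fold changes of -0.71 ± 0.31 and -0.67 ± 0.41 were -0.34 and -0.16 without Chd8-/- replicate 2. Of 24 genes of purine and pyrimidine synthesis, 7 were above and 7 below (29.2% each), with a median of 0.03, or 0.23 without Chd8-/- replicate 2. Adk, adenosine kinase, had the lowest log2 fold change of all 6 lists, -1.68 ± 0.34 (adjusted p = 0.403), at 5.8 and 8.4 TPM in Chd8-/- and 27.0 and 22.5 TPM in WT. Dhodh, the mitochondrial enzyme of pyrimidine synthesis, was at 2.7 and 9.5 TPM against 11.8 and 13.0 TPM, also below WT, with a log2 fold change of -1.10, or -1.86 without Chd8-/- replicate 2. Ctps and Pfas, which make CTP and a purine precursor, were above WT, at 20.8 and 17.2 TPM against 11.2 and 9.7 TPM and at 32.4 and 30.8 TPM against 17.3 and 24.5 TPM.

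Proliferation markers and the E2F family were listed for comparison, since the 50 genes follow the cell cycle in dividing cells. Of 10 proliferation markers 3 were above WT (30%) and none below, and their median log2 fold change was 0.35, or 0.10 without Chd8-/- replicate 2, none being past 1. Cdk1 and Ccne1, a mitotic kinase and the cyclin of S phase entry, were above WT, at 17.8 and 22.3 TPM against 9.3 and 17.0 TPM and at 72.2 and 59.6 TPM against 53.6 and 33.4 TPM in WT Tregs. Ccnb1, a mitotic cyclin, was at 14.2 and 24.7 TPM against 14.3 and 48.7 TPM, and Aurkb at 21.6 and 17.6 TPM against 18.7 and 22.7 TPM, and both overlapped. Of 10 genes of the E2F family 1 was above WT (10.0%) and 3 below (30%), with a median of 0.10, or 0.19 without Chd8-/- replicate 2. E2f1, an activator, was at 11.6 and 14.7 TPM in Chd8-/- and 3.9 and 12.9 TPM in WT, where WT replicate 1 was the low library and the genotypes overlapped. E2f4, a member known mainly as a repressor in resting cells, was below WT in both libraries, at 62.6 and 44.5 TPM against 103.2 and 84.6 TPM, by a log2 fold change of -0.81 ± 0.27 (adjusted p = 0.467, limma). E2f2 was below WT at 13.7 and 20.0 TPM against 23.6 and 26.5 TPM, and E2f5 above WT at 17.9 and 18.0 TPM against 12.2 and 13.9 TPM.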

How the data were processed

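RNA was measured in 4 libraries, 2 WT and 2 Chd8-/-. The authors trimmed reads (Trim Galore 0.4.2, cutadapt 1.9.1), aligned them to mm10 (STAR 2.6.1e), removed duplicates, counted reads per RefSeq gene (featureCounts 1.6.2) and deposited TPM values, rounded to 0.1. The 4 entries under repeated names were left out. From the TPM, log2(TPM + 1) of the 15240 genes with at least 1 TPM in 2 libraries was fitted with limma (version 3.58.1, R version 4.3.3; a trended eBayes, two-sided p, adjusted over all genes by Benjamini-Hochberg), and the method was tested on simulated data. Fold changes on this scale understate those of low genes. Libraries were mapped to genotypes by their titles. The value in each library is given for each of the 50 genes. Of each further list, the 2 highest and 2 lowest by log2 fold change were named. The genes and lists were chosen with earlier results of these data known. Promoters and gene positions came from RefSeq, GRCm38.p6. Other scalings, filters, pseudocounts, a replicate block, no trend and each library left out were tried. ATAC and CHD8 ChIP peak tables were not used here, since their build differs from that of the annotation. TPM gives no depth, so error was measured only from the spread between mice, which limma moderates across genes.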

Additional observations from a re-analysis of the deposited data

How the results depend on the processing

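None of the 50 genes or the 109 further pathway genes passed limma at an adjusted p under 0.05 under any of the 12 alternatives tried. Over all genes the count at that level was 0, and 2 with genes of mean TPM of at least 5 only (Cdkn1a, at 190.7 and 150.1 TPM against 0.2 and 0.3 TPM, and Mir7649, both named after their values were seen). For 31 of the 50 the direction held in all 12.

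With 5 TPM added, log2 fold changes of at least 1 and of -1 or less numbered 362 and 690 over all genes, 1 of the 50 (at least 1), and 2 and 1 of the further genes, and Gins3 turned to -0.029. With mean TPM of at least 5, 1149 genes were at -1 or less. With library medians centred, 3625 genes lay above WT, 5 of the 50 (10.0%, against 7.36% of all genes) were at 1 or more with a median of 0.31, and of the further genes 1 was at -1 or less and 11 lay below WT. The direction turned for Orc1 (0.051), Wdhd1 (0.030), Rfc5 (0.12), Prim1 (0.17), Rpa1 (0.066) and Fen1 (0.072). With quantile normalization the median of the 50 was 0.24, 1 further gene was at -1 or less, and Orc1 (0.040), Wdhd1 (0.069), Pola2 (0.13), Prim1 (0.073) and Fen1 (0.24) turned. The cause was not tested, beyond the shift of the median of all genes from -0.15 to 0.03 or 0.00. Only TTTCCCGC and TTTGGCGC left 13 of 41 genes with an E2F word.

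Leaving out 1 library at a time moved the counts, and with 1 library on a side the genotypes overlap less often by construction. Over all genes, the ranges over the 4 libraries were 989 to 1371 at 1 or more, 1446 to 3107 at -1 or less, 3359 to 4948 above WT and 5794 to 8032 below. Among the 50 they were 1 to 5, 1 to 6, 23 to 28 and 9 to 18, with the median between 0.045 and 0.22, and among the further genes 4 to 9, 2 to 10, 41 to 52 and 25 to 43. The highest counts at -1 or less and below WT all came without Chd8-/- replicate 1, where Chd8-/- replicate 2 stands alone. The direction turned in 18 of the 50, whose log2 fold changes ranged from -0.26 to 0.01 for Orc1, -0.22 to 0.85 for Cdt1, -1.01 to 0.33 for Mcm5, -0.25 to 0.32 for Mcm10, -0.054 to 1.00 for Cdc45, -0.77 to 0.79 for Gins3, -0.058 to 0.39 for Rfc1, -0.60 to 0.80 for Rfc3, -0.23 to 0.12 for Rfc5, -0.81 to 0.44 for Pola2, -0.63 to 0.62 for Prim1, -1.45 to 0.48 for Pold1, -0.086 to 0.089 for Pole2, -0.27 to 0.05 for Rpa1, -0.87 to 0.66 for Fen1, -0.81 to 0.11 for Tyms, -0.69 to 0.85 for Dut and -0.20 to 0.35 for Tipin. In each of the 18 the genotypes overlap in the full data. This follows by construction, since without overlap no single library left out can turn the direction.

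No pairing of the libraries by replicate number was seen: the deviations of same-numbered libraries correlated at -0.01 over genes. Pairing that touches few genes would not show in this measure. With the replicate block, 0 of the 50 genes were called, the smallest adjusted p being 0.552 (0.0807 over all genes without it). The comparison of peaks near these genes was not run.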
